A study of Mus musculus with 6 samples.

Results

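The ABC transporter genes were the rows of the count table whose symbol consisted of Abc, a subfamily letter from a to g, a number and at most 1 further letter, with at least 10 counts summed over the 6 libraries. Of 50 such rows among 46095 genes, 42 reached that minimum: 13 of subfamily A, 8 of B, 8 of C, 4 of D, 1 of E, 3 of F and 5 of G. The filter on low counts that comes before the test across all genes was passed by 35 of the 42 members, among 14611 genes. The 7 members that were not tested with all 6 libraries, Abca6, Abca14, Abca17, Abcb4, Abcd2, Abcg4 and Abcg8, lay between 0 and 0.833 CPM in every library. CPM is the read count scaled to a common library size and corrected for library composition. The 8 rows below the minimum were Abca12, Abca15 and Abcb5, each with 0 counts, Abca16 with 1, Abcc12 with 2, Abcb11 with 3, Abcg5 with 5 and Abcc8 with 9.

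RNA was sequenced from renal tubular epithelial cells (PTECs) freshly isolated from mice in the C57 background at 10 weeks of age. The libraries labelled VHL-KO (replicates 1, 2 and 4) came from Ksp-Cre mice with both Vhl alleles floxed, and the VHL-KO;SETD2-KO ones (replicates 2, 3 and 4) from Ksp-Cre mice in which Vhl and Setd2 were both floxed. Both labels therefore share the Vhl deletion, and no wild-type PTEC library was analysed here. VHL marks the α subunits of hypoxia-inducible factors (HIF) for degradation, and SETD2 is the methyltransferase that places H3K36me3 over transcribed genes. Ksp-Cre is driven by the Cdh16 promoter and was used to recombine in tubular epithelium, so that other kidney cell types in a preparation would keep both genes. How far it recombined in each tubule segment, the proximal one included, cannot be seen from these counts. The question addressed is which ABC genes differed when Setd2 was deleted in addition to Vhl.

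ABC proteins couple ATP hydrolysis to movement of a substrate across a membrane, and are named for their shared ATP-binding cassette. In the proximal tubule, those of the brush border (ABCC2, ABCC4, ABCG2 and P-glycoprotein) put drugs, conjugates and urate into the lumen, whereas other ABCC proteins work at the basolateral membrane. Subfamily A moves lipids, part of B serves haem and iron-sulphur metabolism in mitochondria, and D carries fatty acids into peroxisomes. Subfamilies E and F have no membrane-spanning part and act at the ribosome.

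The libraries held 11168552 to 17883466 counts, and 3 counts, the smallest signal taken as detectable, equalled 0.159 to 0.281 CPM; this covers counting error only. Setd2 itself had 1179, 799 and 132 counts with the VHL-KO label (replicates 1, 2 and 4) but 1499, 1019 and 1429 with the VHL-KO;SETD2-KO label (replicates 2, 3 and 4). In CPM these were 71.5, 73.9 and 12.3 against 79.6, 57.4 and 89.6. The labels overlapped, so its gene total was not consistently lower under the label that names its deletion. The paper reports SETD2 and H3K36me3 as reduced in renal tubules of its knockout mice, by Western blotting, tissue staining and RT-qPCR. A whole-gene count does not isolate the floxed part of Setd2, and the labels are used here only as names of libraries. The library labelled VHL-KO replicate 4 stood apart. Over the tested ABC genes, its Spearman correlation with the other 5 libraries was 0.602 to 0.740, against 0.887 to 0.993 among those 5, and mitochondrially encoded genes took 11.3% of its counts against 25.9% to 36.4%. Under the label VHL-KO;SETD2-KO replicate 3, the library held 11704 Xist counts and 1 count over Y-linked genes, whereas Xist had 0 to 4 counts in the other 5. Y-linked genes had 3246, 2071 and 260 counts with the VHL-KO label, and 3050 and 3283 in VHL-KO;SETD2-KO replicates 2 and 4. By these counts, 1 library came from a female mouse and the other 5 from males. Sex was not a factor in the fits, and cannot be told apart from any other trait of that female library. Tests of members are therefore given with and without VHL-KO replicate 4, and VHL-KO;SETD2-KO replicate 3 is named where it sets a value.

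Markers of the proximal tubule were abundant but differed between genotype labels. In the counts that follow, a marker is called at an unadjusted edgeR p under 0.05 with a fold of 1.5 or more, which 2.65% of all genes passed as higher and 4.68% as lower with all 6 libraries, and 8.29% and 7.14% without VHL-KO replicate 4. The summed level of 10 proximal tubule markers was 31371, 28583 and 33855 CPM with the VHL-KO label and 12461, 9936 and 13840 CPM with the VHL-KO;SETD2-KO label, and 3 of the 10 were lower (6 of the 10 without VHL-KO replicate 4). Kap was a large part of most of these sums, at 18289, 16188 and 7619 CPM against 6760, 1216 and 6966 CPM. The low sum of VHL-KO;SETD2-KO replicate 3 went with its low Kap level. The 5 podocyte markers summed to 1437, 1928 and 2089 CPM against 4836, 1971 and 4296 CPM, with 3 of the 5 higher (4 without VHL-KO replicate 4). The 6 endothelial markers summed to 1446, 1693 and 1026 CPM against 4032, 1296 and 3287 CPM, with 0 of the 6 called in either fit. The 8 markers of the thick limb and distal tubule summed to 1789, 2486 and 7081 CPM against 1928, 5053 and 2253 CPM, with 2 of the 8 higher in each fit. These were Kcnj1 and Calb1 with all 6 libraries, and Kcnj1 and Slc12a3 without VHL-KO replicate 4. No listed marker of these 4 cell types was at 0 in any library. Collecting duct markers summed to 51.0, 75.6 and 425 CPM against 77.8, 228 and 84.4 CPM, with 2 of the 6 higher in each fit. Atp6v1g3 was called in both, with Slc26a4 in the fit of all 6 libraries and Scnn1g in the other. Macrophage markers summed to 62.6, 178 and 192 CPM against 81.9, 54.5 and 115 CPM, with 2 of the 6 lower (1 without VHL-KO replicate 4), and the 4 erythroid markers to 659, 522 and 1804 CPM against 583, 527 and 540 CPM, with 0 called in either fit. The part of these shifts in the ABC results was not tested, and in such bulk samples fewer cells of a type and less RNA per cell cannot be told apart.

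A few genes carried much of the ABC signal. Per kilobase of annotated exon, the mean level over the 6 libraries was highest for Abca3, the lipid pump of lamellar bodies, at 54.1 CPM per kilobase. Abcd3, the abundant fatty acid transporter of the peroxisomal membrane, followed at 39.6, Abcg2 (the urate and drug exporter BCRP) at 32.7, Abcc2 (the conjugate exporter MRP2) at 30.6 and Abcf2, a ribosome-associated ATPase, at 20.4 CPM per kilobase. Without VHL-KO replicate 4 the same 5 genes led, but Abcd3 came first at 45.9 and Abca3 was at 40.2 CPM per kilobase. Abca3, Abcd3, Abcg2 and Abcc2 together made up 66.6%, 61.5% and 53.6% of the summed ABC level with the VHL-KO label, against 45.6%, 48.5% and 47.3% with the VHL-KO;SETD2-KO label. The sum over all 42 members was 2740, 2665 and 2686 CPM against 1776, 2222 and 2089 CPM, so that every library labelled VHL-KO lay above every library labelled VHL-KO;SETD2-KO. The make-up of that sum differed in VHL-KO replicate 4, where Abca3 was at 1161 CPM, against 536 and 476 CPM in VHL-KO replicates 1 and 2. Abcd3, Abcg2 and Abcc2 were at 54.9, 119.9 and 106 CPM there, against 380 and 363, 449 and 352, and 459 and 448 CPM. From here on, levels are listed in that replicate order.

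**Figure D1:**
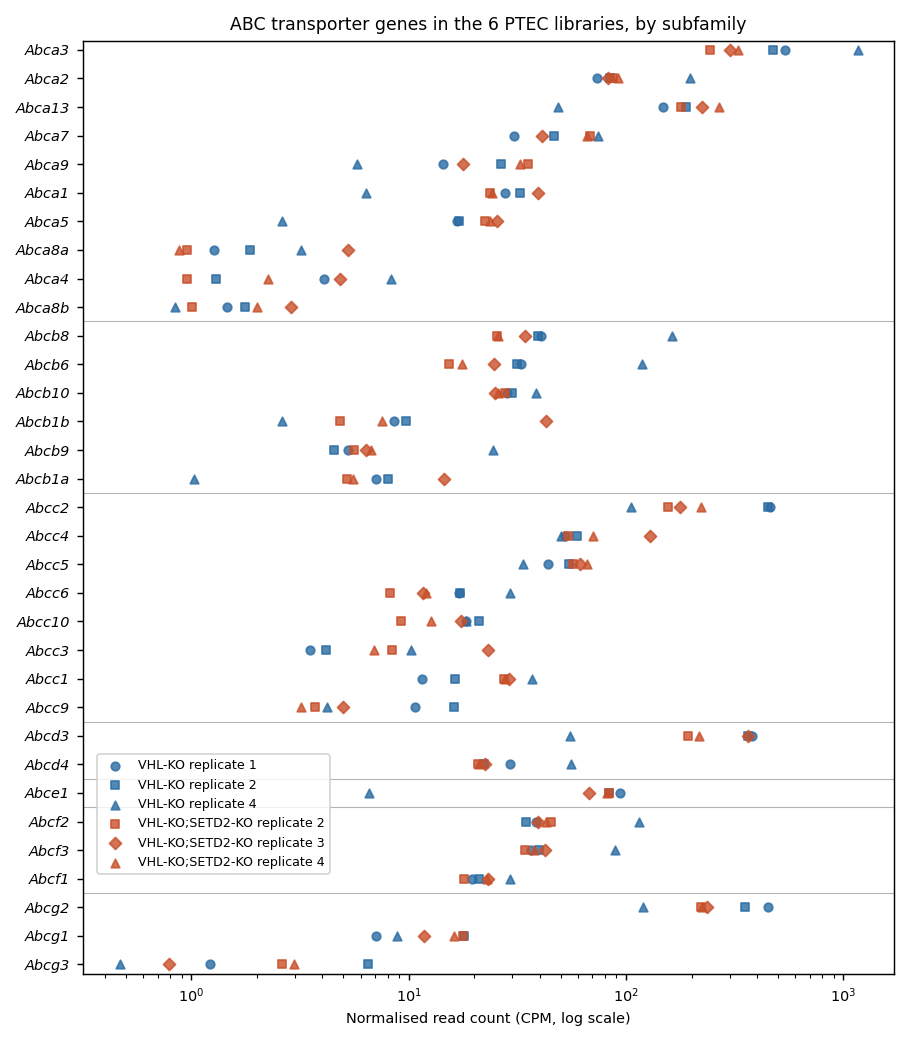
Normalised read counts (CPM, logarithmic horizontal axis) of 33 tested ABC genes, grouped by subfamily letter from A at the top to G at the bottom, with blue points for libraries labelled VHL-KO and orange points for VHL-KO;SETD2-KO. The blue triangles, VHL-KO replicate 4, lie at an end of the row for most genes, being highest for 14 and lowest for 14 of the 33.

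With all 6 libraries, 5 of the 35 tested members were lower in VHL-KO;SETD2-KO and 0 were higher by the call rule used here, an unadjusted edgeR p under 0.05 together with a fold of 1.5 or more. Over all genes tested, 4.68% were lower and 2.65% higher by the same rule. The 5 genes were Abca3, the mitochondrial transporters Abcb6 and Abcb8, Abcc6, whose loss leads to ectopic calcification, and Abcc9, the sulfonylurea receptor of vascular potassium channels. None of them passed after adjustment over all genes (edgeR adjusted p = 0.625 for each), as against a background of 0.00684% lower and 0% higher. The unadjusted count changed when single libraries were left out, although the log2 fold changes of the 5 genes stayed negative. Without VHL-KO;SETD2-KO replicate 2 it was 0 (all genes: 1.37% lower, 1.19% higher), without VHL-KO;SETD2-KO replicate 4 it was 0 (1.78% and 1.24%), and without VHL-KO;SETD2-KO replicate 3 only Abcb6 was lower (2.20% and 2.37%). Without VHL-KO replicate 1, Abca3, Abcb6 and Abcb8 were lower (all genes: 6.49% lower, 1.31% higher). Without VHL-KO replicate 2, those 3 genes were lower and Abca9 higher (7.11% and 2.60%).

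Without the library labelled VHL-KO replicate 4, 37 members were tested (Abca6 and Abcd2 in addition) and 8 passed the unadjusted rule in edgeR: Abcc1 and Abcc3 were higher, and Abca3, Abcb6, Abcc2, Abcc6, Abcc9 and Abcg2 were lower. The backgrounds were then 8.29% higher and 7.14% lower, and 0 members passed after adjustment, beside 0% and 0.00667% of all genes. DESeq2 on the same 5 libraries left 6 members past an adjusted p under 0.05, with Abcc1 and Abcc3 higher and Abca3, Abcc2, Abcc9 and Abcg2 lower, beside 3.56% of all genes higher and 4.69% lower. Abca3, Abcb6, Abcc6 and Abcc9 were thus lower by the unadjusted rule in edgeR both with and without that library.

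**Figure D2:**
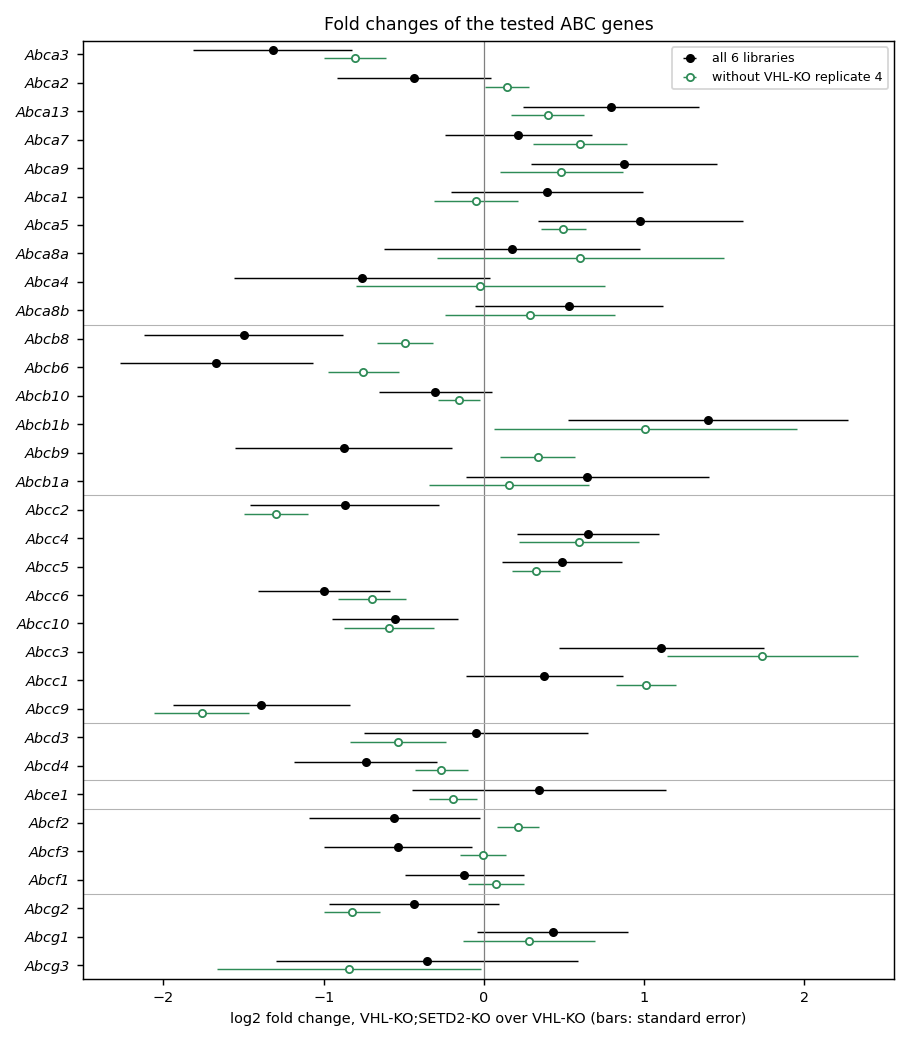
Log2 fold change of 33 tested ABC genes, VHL-KO;SETD2-KO over VHL-KO, with the standard error of each (edgeR), from all 6 libraries (black) and without VHL-KO replicate 4 (open green), in subfamily order. The green bars are shorter than the black ones for most genes, and the points of Abca1, Abca2, Abcb9, Abce1, Abcf1 and Abcf2 cross 0 between the fits.

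Among the apical exporters, the highly expressed Abcc2 and Abcg2 were lower against the VHL-KO replicates 1 and 2, while Abcc4 and the P-glycoprotein genes were highest in a single VHL-KO;SETD2-KO library. Abcc2 (chr19:43782192-43840740, plus strand) stood at 459, 448 and 106 CPM with the VHL-KO label and 155, 177 and 222 CPM with VHL-KO;SETD2-KO. The 3 VHL-KO;SETD2-KO libraries lay between VHL-KO replicate 4 and the other VHL-KO libraries, so the labels overlapped. Its log2 fold change was -0.87 (SE 0.59, unadjusted p = 0.178) with all libraries and -1.30 (SE 0.20, unadjusted p = 0.000613) without VHL-KO replicate 4, for which DESeq2 gave -1.30 (SE 0.22, DESeq2 adjusted p = 9.49e-07). Abcg2 (chr6:58584523-58695676, plus strand) read 449, 352 and 119.9 CPM with the VHL-KO label and 221, 236 and 223 CPM with VHL-KO;SETD2-KO, again with VHL-KO replicate 4 below all others. On the log2 scale the difference moved from -0.44 (SE 0.53, unadjusted p = 0.435) to -0.82 (SE 0.17, unadjusted p = 0.00319) without that library, and DESeq2 then gave -0.83 (SE 0.19, DESeq2 adjusted p = 0.000437).

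Abcc4 (MRP4), which exports cyclic nucleotides and urate, had 52.3, 59.3 and 49.9 CPM with the VHL-KO label and 53.9, 129 and 70.5 CPM with VHL-KO;SETD2-KO. Only VHL-KO;SETD2-KO replicate 3 lay far above the rest, at 2.07 times the mean of replicates 2 and 4. The log2 fold change was 0.65 (SE 0.44, unadjusted p = 0.180), and 0.59 (SE 0.37, unadjusted p = 0.163) without VHL-KO replicate 4. Mice carry a pair of P-glycoprotein genes, whose closely related sequences leave the split of reads between them uncertain. Abcb1b gave 8.55, 9.71 and 2.62 CPM with the VHL-KO label and 4.84, 42.7 and 7.53 CPM with VHL-KO;SETD2-KO, with replicate 3 at 6.91 times the mean of the other VHL-KO;SETD2-KO libraries. Abcb1a gave 7.03, 8.05 and 1.03 CPM with the VHL-KO label and 5.21, 14.5 and 5.52 CPM with VHL-KO;SETD2-KO, with the same library highest, at 2.71 times that mean. Neither passed the test, with log2 fold changes of 1.40 (SE 0.87, unadjusted p = 0.148) for Abcb1b and 0.64 (SE 0.76, unadjusted p = 0.418) for Abcb1a, which became 1.01 and 0.16 without VHL-KO replicate 4. Both were negative without VHL-KO replicate 4 and VHL-KO;SETD2-KO replicate 3, at -0.563 and -0.487. Of the exon length of Abcb1a, 10.1% overlaps the gene Gm42686.

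The exporters of the basolateral and other plasma membranes did not move as one group. Abcc1 (MRP1; chr16:14361558-14475737, plus strand), a glutathione conjugate and leukotriene exporter, had 11.5, 16.3 and 36.8 CPM with the VHL-KO label and 27.4, 28.8 and 27.7 CPM with VHL-KO;SETD2-KO. The VHL-KO;SETD2-KO libraries were close to each other and lay above VHL-KO replicates 1 and 2 but below replicate 4. The log2 fold change of Abcc1 was 0.38 (SE 0.49, unadjusted p = 0.462) over all libraries, 1.01 (SE 0.19, unadjusted p = 0.00171) without VHL-KO replicate 4, and 1.01 (SE 0.24, DESeq2 adjusted p = 0.00123) by DESeq2 on those 5. Abcc3 (MRP3; chr11:94343295-94392997, minus strand), which exports glucuronides and bile acids, had 3.52, 4.16 and 10.2 CPM with the VHL-KO label and 8.40, 23.1 and 6.90 CPM with VHL-KO;SETD2-KO. The level in VHL-KO;SETD2-KO replicate 3 was 3.02 times the mean of replicates 2 and 4. The log2 fold change of Abcc3 was 1.11 (SE 0.64, unadjusted p = 0.121), 1.74 (SE 0.59, unadjusted p = 0.0266) without VHL-KO replicate 4, and 1.73 (SE 0.59, DESeq2 adjusted p = 0.0384) by DESeq2.

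Abcc5 (MRP5; chr16:20331303-20426394, minus strand), a cyclic nucleotide exporter, showed 43.7, 54.4 and 33.7 CPM with the VHL-KO label and 57.1, 61.7 and 65.9 CPM with VHL-KO;SETD2-KO. The labels did not overlap, but the difference was small, with a log2 fold change of 0.49 (SE 0.38, unadjusted p = 0.231), and of 0.32 (SE 0.15, unadjusted p = 0.0765) without VHL-KO replicate 4. Abcc6 (chr7:45967555-46030302, minus strand) was at 17.1, 17.2 and 29.3 CPM with the VHL-KO label and 8.24, 11.6 and 12 CPM with VHL-KO;SETD2-KO, and here every VHL-KO library lay above every VHL-KO;SETD2-KO library. For Abcc6 the log2 fold change was -0.998 (SE 0.41, unadjusted p = 0.0401), a 2.00-fold lower level, and -0.70 (SE 0.21, unadjusted p = 0.0170) without VHL-KO replicate 4. Abcc10 (MRP7), an exporter of lipophilic drugs, also did not overlap, at 18.2, 21.1 and 18.2 CPM with the VHL-KO label and 9.25, 17.3 and 12.6 CPM with VHL-KO;SETD2-KO, with a log2 fold change of -0.55 (SE 0.39, unadjusted p = 0.193), and of -0.59 (SE 0.28, unadjusted p = 0.0785) without that library. Across the 8 tested subfamily C genes the levels of Abcc2, Abcc6, Abcc9 and Abcc10 were thus lower by sign and those of Abcc1, Abcc3, Abcc4 and Abcc5 higher by sign, in both fits.

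**Figure D3:**
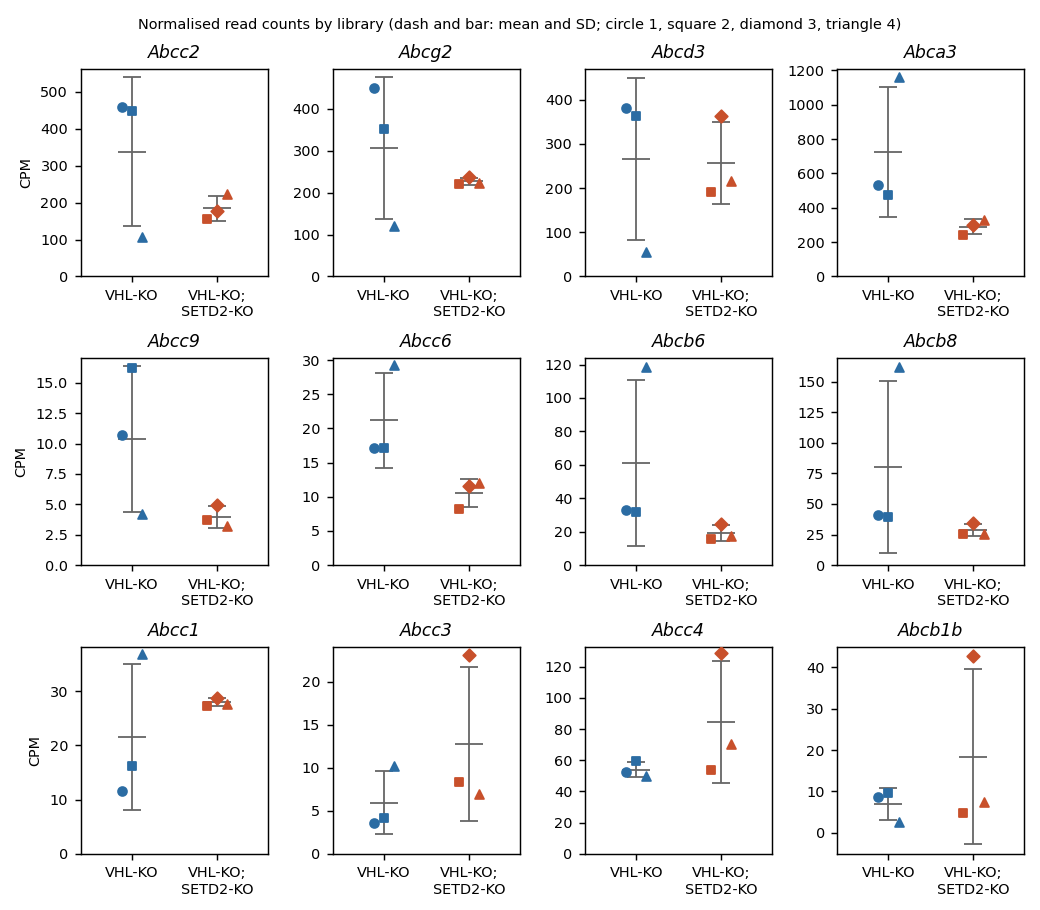
Normalised read counts (CPM, linear axes) of 12 ABC genes in each library labelled VHL-KO (blue) and VHL-KO;SETD2-KO (orange); the dash and bar are the mean and SD of 3 libraries and the symbol gives the replicate number. VHL-KO replicate 4 is the lowest blue point for Abcc2, Abcg2, Abcd3, Abcc9, Abcc4 and Abcb1b and the highest for the other 6 genes, and VHL-KO;SETD2-KO replicate 3 stands well above the other orange points for Abcc3, Abcc4 and Abcb1b.

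Abcc9 (chr6:142587862-142702315, minus strand) encodes SUR2, the regulatory subunit of ATP-sensitive potassium channels in smooth muscle and pericytes. Its level was low, at 10.7, 16.2 and 4.21 CPM with the VHL-KO label and 3.72, 4.96 and 3.20 CPM with VHL-KO;SETD2-KO, and VHL-KO replicate 4 fell among the VHL-KO;SETD2-KO libraries. The log2 fold change was -1.39 (SE 0.55, unadjusted p = 0.0357) with all libraries and -1.76 (SE 0.29, unadjusted p = 0.000966) without VHL-KO replicate 4, and DESeq2 on those 5 gave -1.77 (SE 0.36, DESeq2 adjusted p = 9.71e-05). The channel pore Kcnj8 (Kir6.1), which assembles with SUR2, was at 5.52, 5.55 and 20.8 CPM with the VHL-KO label and 2.02, 3.21 and 4.64 CPM with VHL-KO;SETD2-KO, and its log2 fold change was -1.69 (SE 0.66, unadjusted p = 0.0326), and -0.76 (unadjusted p = 0.102) without VHL-KO replicate 4. The 6 markers of fibroblasts and mural cells summed to 74.6, 58.9 and 311 CPM against 167, 169 and 65.2 CPM, with 1 of the 6 higher and 0 lower (2 and 0 without VHL-KO replicate 4), and their part in the Abcc9 result was not tested.

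Of the sterol and phospholipid exporters, Abca1, Abca7 and Abcg1 were tested and none passed in either fit. Abca1, which loads cholesterol onto apolipoprotein A-I, read 27.6, 32.4 and 6.36 CPM with the VHL-KO label and 23.8, 39.3 and 24 CPM with VHL-KO;SETD2-KO, with a log2 fold change of 0.39 (SE 0.60, unadjusted p = 0.532) that became -0.050 without VHL-KO replicate 4. Abcg1, which passes cholesterol to high-density lipoprotein, read 7.09, 18 and 8.79 CPM with the VHL-KO label and 17.7, 11.7 and 16.1 CPM with VHL-KO;SETD2-KO, with a log2 fold change of 0.43 (SE 0.47, unadjusted p = 0.389), and of 0.28 without that library. Abca7, a phospholipid exporter of the same branch as Abca1, read 30.5, 46.6 and 74.1 CPM with the VHL-KO label and 68.1, 41 and 66.3 CPM with VHL-KO;SETD2-KO, with a log2 fold change of 0.21 (SE 0.46, unadjusted p = 0.653), and of 0.60 (SE 0.29, unadjusted p = 0.0869) without it. The phosphatidylcholine flippase Abcb4 was close to the detection limit, at 0.424, 0.463 and 0.281 CPM with the VHL-KO label and 0.372, 0.338 and 0.314 CPM with VHL-KO;SETD2-KO, and Abcg4 and Abcg8 were below 1 CPM.

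Abca3 (chr17:24351950-24410201, plus strand) was lower in VHL-KO;SETD2-KO in both fits. It moves phosphatidylcholine into lamellar bodies in lung, and its exons overlap D330041H03Rik over 9.75% of their length. Whether reads of the 2 genes were separated there is not known, since the use of strand in counting is not given. Abca3 stood at 536, 476 and 1161 CPM with the VHL-KO label and 243, 302 and 326 CPM with VHL-KO;SETD2-KO. Every VHL-KO library lay above every VHL-KO;SETD2-KO library, with VHL-KO replicate 4 highest. The log2 fold change was -1.32 (SE 0.50, unadjusted p = 0.0287), -0.80 (SE 0.19, unadjusted p = 0.00596) without VHL-KO replicate 4, a 1.75-fold lower level, and -0.81 (SE 0.21, DESeq2 adjusted p = 0.00316) by DESeq2.

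The promoter of Abca3 is shown because it held the most HIF core motifs (ACGTG or GCGTG on either strand, in capitals) among the members, and that of Abca5, a lysosomal relative, because it had 4 and its levels did not overlap between labels in the other direction; that of Abcc2 is shown beside them as an apical exporter with none. The windows are from RefSeq on GRCm38.p6, 300 bases long and placed around RefSeq's own transcript start, which for Abca3 and Abcc2 lies downstream of the GENCODE start printed above, at chr17:24351773-24352072, plus strand, at chr11:110337667-110337966, minus strand, and at chr19:43782058-43782357, plus strand, respectively.
Abca3: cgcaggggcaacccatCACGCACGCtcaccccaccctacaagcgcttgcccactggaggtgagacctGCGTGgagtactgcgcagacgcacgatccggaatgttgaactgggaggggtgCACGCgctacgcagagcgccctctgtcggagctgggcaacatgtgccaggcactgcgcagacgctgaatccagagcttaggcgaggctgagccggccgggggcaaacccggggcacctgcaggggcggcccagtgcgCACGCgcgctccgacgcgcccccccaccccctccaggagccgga
Abca5: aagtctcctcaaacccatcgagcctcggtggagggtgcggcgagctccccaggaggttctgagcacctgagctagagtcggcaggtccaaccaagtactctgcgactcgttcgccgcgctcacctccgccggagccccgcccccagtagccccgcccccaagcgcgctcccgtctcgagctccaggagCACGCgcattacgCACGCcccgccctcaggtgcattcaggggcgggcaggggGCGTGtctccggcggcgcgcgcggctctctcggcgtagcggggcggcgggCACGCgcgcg
Abcc2: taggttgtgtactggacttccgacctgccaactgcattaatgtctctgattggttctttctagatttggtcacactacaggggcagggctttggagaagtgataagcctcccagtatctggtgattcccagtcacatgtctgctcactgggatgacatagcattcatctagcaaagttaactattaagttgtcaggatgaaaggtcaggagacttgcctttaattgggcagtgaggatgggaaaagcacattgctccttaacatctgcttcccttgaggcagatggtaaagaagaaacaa
Of 42 members, 31 matched this promoter table, with 38 promoters; Abcb8, Abcc1, Abcc3 and Abcc6 were among those without an entry. The HIF core occurred in 19 of the 38 member promoters (50%) and in 43.8% of all 32851 promoters. The GC box GGGCGG occurred in 21 (55.3%) against 35.7%, the antioxidant response core TGACNNNGC in 7 (18.4%) against 12.4%, and the HNF1 motif GTTAAT in 0 against 7.10%, all on both strands. The promoter of Abcc2 held 1 antioxidant response core. The median share of G and C was 61.8% in member promoters and 52.7% in all. A match is a description of the letters and not a binding site.

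The other lysosomal members showed no common direction. Abca5 (chr11:110269369-110337716, minus strand) had 16.7, 17 and 2.62 CPM with the VHL-KO label and 22.3, 25.5 and 23.6 CPM with VHL-KO;SETD2-KO, so that the 3 VHL-KO;SETD2-KO libraries lay above all of VHL-KO. This gave a log2 fold change of 0.97 (SE 0.64, unadjusted p = 0.165), and of 0.50 (SE 0.14, unadjusted p = 0.0125) without VHL-KO replicate 4, whose level was the lowest. Abca2, Abcb9 (the lysosomal peptide transporter TAPL) and Abcd4, a lysosomal cobalamin exporter, had log2 fold changes of -0.44 (SE 0.48), -0.88 (SE 0.68) and -0.74 (SE 0.44), and of 0.15, 0.33 and -0.27 without VHL-KO replicate 4. The direction for Abca2 and Abcb9 therefore turned when that library was left out.

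The mitochondrial members Abcb6, Abcb8 and Abcb10 were lower by sign with and without VHL-KO replicate 4. Abcb6 (chr1:75171717-75180392, minus strand), a porphyrin transporter, was at 32.9, 31.5 and 119 CPM with the VHL-KO label and 15.4, 24.6 and 17.6 CPM with VHL-KO;SETD2-KO, with a log2 fold change of -1.67 (SE 0.60, unadjusted p = 0.0240) and of -0.75 (SE 0.22, unadjusted p = 0.0147) without that library. Its exons overlap the non-coding gene Gm29253 over 55.2% of their length, and the strand used in counting is not given in the sources used here. Abcb8 (chr5:24393663-24410054, plus strand), which acts in mitochondrial iron export, was at 40.6, 39.3 and 162 CPM with the VHL-KO label and 25.5, 34.2 and 25.7 CPM with VHL-KO;SETD2-KO. Abcb8 had a log2 fold change of -1.50 (SE 0.62, unadjusted p = 0.0415) over all libraries, 2.83-fold lower, and of -0.49 (SE 0.17, unadjusted p = 0.0293) without VHL-KO replicate 4, which is 1.41-fold and below the fold threshold. Both genes had no overlap between labels.

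Abcb10, a haem synthesis factor, read 28.2, 29.9 and 38.5 CPM with the VHL-KO label and 27.7, 24.8 and 25.8 CPM with VHL-KO;SETD2-KO, a difference without overlap but of small size, at -0.30 (SE 0.35, unadjusted p = 0.417) on the log2 scale, and -0.16 (SE 0.13, unadjusted p = 0.274) without VHL-KO replicate 4. Of the exons of Abcb10, 10.3% of the length overlaps the gene Gm45890.

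In the peroxisomal group, Abcd3 (PMP70) was the most abundant, at 380.2, 363 and 54.9 CPM with the VHL-KO label and 192, 362 and 217 CPM with VHL-KO;SETD2-KO. VHL-KO;SETD2-KO replicate 3 was at the level of VHL-KO replicates 1 and 2, the other VHL-KO;SETD2-KO libraries lay below, and VHL-KO replicate 4 was lowest. Its log2 fold change was -0.050 (SE 0.70, unadjusted p = 0.944), and -0.54 (SE 0.30, unadjusted p = 0.123) without VHL-KO replicate 4. Abcd2 was at or below 0.833 CPM. It passed the filter on low counts without VHL-KO replicate 4, where its log2 fold change was -0.036 (SE 0.80, unadjusted p = 0.965).

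The 4 ribosome-associated members differed little once VHL-KO replicate 4 was set aside. Abce1, the ribosome recycling factor, was at 93.4, 83.5 and 6.55 CPM with the VHL-KO label and 83.4, 67.8 and 81.6 CPM with VHL-KO;SETD2-KO, and in VHL-KO replicate 4 it was 13.5-fold below the mean of the other VHL-KO libraries. Abcf1, an initiation cofactor, was at 19.5, 21 and 29.4 CPM with the VHL-KO label and 17.9, 23.2 and 23 CPM with VHL-KO;SETD2-KO. Abcf2 was at 38.4, 34.5 and 115 CPM with the VHL-KO label and 45, 39.4 and 42.8 CPM with VHL-KO;SETD2-KO, and there VHL-KO replicate 4 was highest. Abcf3 was at 36.5, 39.8 and 89.3 CPM with the VHL-KO label and 34.3, 42.5 and 37.5 CPM with VHL-KO;SETD2-KO, again with VHL-KO replicate 4 highest. The log2 fold changes of Abce1, Abcf1, Abcf2 and Abcf3 were 0.34 (SE 0.79), -0.12 (SE 0.37), -0.56 (SE 0.53) and -0.54 (SE 0.46) over all libraries and -0.19, 0.076, 0.21 and -0.0053 without it, and none passed in either fit.

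The remaining tested members belong to subfamilies A and G. Abca13, the longest of them, lay between 48.4 and 267 CPM and had a log2 fold change of 0.79 (SE 0.55, unadjusted p = 0.187), and of 0.40 (SE 0.23, unadjusted p = 0.133) without VHL-KO replicate 4. Abca9 lay between 5.80 and 35.2 CPM, with a log2 fold change of 0.87 (SE 0.58, unadjusted p = 0.171), and of 0.48 (SE 0.38, unadjusted p = 0.252) without that library. Abca4, Abca8a, Abca8b and Abcg3 lay between 0.468 and 8.32 CPM, and none of them passed in either fit.

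By subfamily letter, the median log2 fold change over tested members was 0.30 for A, -0.30 for B, -0.088 for C, -0.74 for D, 0.34 for E (Abce1 alone), -0.54 for F and -0.36 for G, beside 0.0093 for all genes tested. Over all 35 members the median was -0.12, with 16 higher and 19 lower by sign. Without VHL-KO replicate 4 the medians were 0.29 for A, -0.16 for B, -0.13 for C, -0.15 for D, -0.19 for E, 0.076 for F and -0.82 for G, beside 0.035 for all genes. Those of A and D then include Abca6 and Abcd2, and over the members tested with all 6 libraries they were 0.34 and -0.27. The order of the subfamilies therefore differed between the fits, E and F changed sign, and no test was made over members. Summed by letter, subfamily C stood at 616, 637 and 288 CPM with the VHL-KO label and 323, 454 and 421 CPM with the VHL-KO;SETD2-KO label. Subfamily A, in which Abca3 was the main component, stood at 854, 878 and 1507 CPM against 661, 745 and 837 CPM, without overlap. Abca3 alone stood at 536, 476 and 1161 CPM against 243, 302 and 326 CPM. With all 6 libraries, 7 of the 10 tested members of subfamily A were higher by sign and 3 lower.

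Without any model, 2 members were higher in each VHL-KO;SETD2-KO library than in each VHL-KO library, Abca5 and Abcc5, where 9.62% of all genes were. In the other direction 6 members did not overlap (Abca3, Abcb6, Abcb8, Abcb10, Abcc6 and Abcc10), where 11% of all genes did not. Without VHL-KO replicate 4 the counts were 6 higher and 12 lower, beside 20.4% and 21.5% of all genes. With 3 libraries against 3, an exact two-sided permutation test of a single gene cannot give a p below 0.1.

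VHL-KO replicate 4 differed from the other VHL-KO libraries along the base composition of the transcripts. Its level was above the mean of VHL-KO replicates 1 and 2 for 17 of the 35 members, whose transcripts held a median of 54.2% G and C. It was below for 18, with a median of 44.8%. Over the 35 members, which share these libraries, the Spearman correlation between the share of G and C and the log2 ratio was 0.75, and over 13786 genes it was 0.74. VHL-KO replicate 4 was the highest library for 15 members and the lowest for 15, beside 40.0% and 41.6% of all genes. Abcc2, Abcg2, Abcc9 and Abcd3, whose fold changes were larger or more negative without that library, were on the side with less G and C, and Abca3, Abcb6, Abcb8 and Abcc6 on the other. The part of base composition in the result was not tested.

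**Figure D4:**
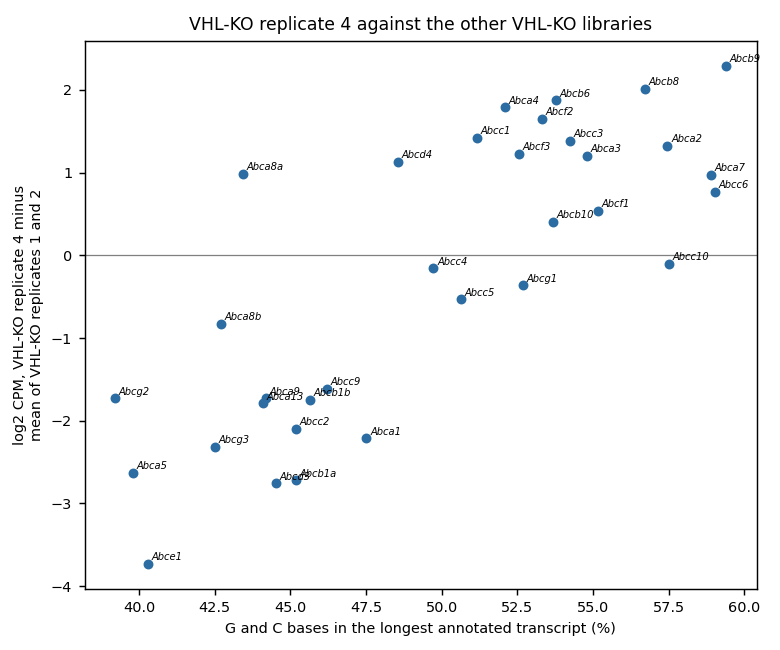
Log2 ratio of the normalised read count in VHL-KO replicate 4 to the mean of VHL-KO replicates 1 and 2 (vertical axis) against the percentage of G and C bases in the longest annotated transcript (horizontal axis) for 33 tested ABC genes. Abcb9, Abcb8 and Abcb6 are near the top on the right, and Abce1, at the bottom on the left, is the lowest.

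VHL-KO;SETD2-KO replicate 3, the library with Xist counts, was the highest of all 6 for 8 of the 35 members (22.9%), beside 11.99% of all genes. They were Abca1, Abca5, Abca8a, Abca8b, Abcb1a, Abcb1b, Abcc3 and Abcc4. When this library and VHL-KO replicate 4 were both left out, 12 members passed an adjusted p under 0.05 in edgeR: Abca7, Abcc1 and Abcc3 were higher, and Abca3, Abcb6, Abcb8, Abcc2, Abcc6, Abcc9, Abcc10, Abcd3 and Abcg2 lower, beside 8.90% of all genes higher and 7.89% lower. This setting leaves 2 libraries for each label and was chosen after the data were seen. Limma-voom, which weights each library by its quality and kept all 6, gave adjusted p-values under 0.05 for the same 12 genes in the same directions, beside 9.94% of all genes higher and 8.25% lower.

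Of 39 listed regulators and partners of ABC proteins, 32 were tested. None was higher and 3 were lower by the unadjusted rule, beside 2.65% and 4.68% of all genes, and 0 passed after adjustment (edgeR). Slc9a3r1 (NHERF1), a scaffold that holds ABCC2 and ABCC4 at the brush border, read 196, 192 and 855 CPM with the VHL-KO label and 117, 132 and 123 CPM with VHL-KO;SETD2-KO. Its log2 fold change was -1.74 (SE 0.66, unadjusted p = 0.0288), and -0.65 (unadjusted p = 0.00321) without VHL-KO replicate 4. Nr1h3 (LXRα), the oxysterol receptor that drives Abca1 and Abcg1, read 25.8, 26.4 and 103 CPM with the VHL-KO label and 15.1, 23.5 and 15.1 CPM with VHL-KO;SETD2-KO, with a log2 fold change of -1.53 (SE 0.62, unadjusted p = 0.0390) and of -0.54 (unadjusted p = 0.0584) without that library. The other was Kcnj8, given above. Of the transcription factors, Nr1h4 (FXR), the bile acid receptor, read 193, 192 and 71.5 CPM with the VHL-KO label and 81.2, 89.7 and 109.8 CPM with VHL-KO;SETD2-KO, and without VHL-KO replicate 4 its log2 fold change was -1.04 (unadjusted p = 0.000907) in edgeR and -1.05 (DESeq2 adjusted p = 4.03e-05) by DESeq2. Epas1 (HIF-2α), which VHL loss stabilises as a protein, read 272, 320.3 and 125 CPM with the VHL-KO label and 706, 365 and 534 CPM with VHL-KO;SETD2-KO, without overlap and with a log2 fold change of 1.16 (SE 0.51, unadjusted p = 0.0528). The endothelial marker sum given above was also highest in the VHL-KO;SETD2-KO replicates 2 and 4, where Epas1 was highest, and its part in the Epas1 difference was not tested. Without VHL-KO replicate 4, 33 of the listed genes were tested, and 3 were higher (Ahr, Epas1 and Slc9a3r2) and 4 lower (Nr1h4, Cftr, Pdzk1 and Slc9a3r1) by the unadjusted rule in edgeR, beside 8.29% and 7.14% of all genes.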

How the data were processed

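RNA-seq libraries of PTECs from 6 mice were analysed, with genotype and replicate taken from the sample labels. The authors deposited raw counts per gene symbol; per the labels, HISAT2 2.0.4 and GRCm38 were used, and the counting tool and its use of strand are not given in the sources used here. The libraries were directional, with paired ends. No depth correction preceded deposit, so the totals set the counting error, which does not include the spread between libraries. Every per-sample column was used (0 were left out).

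Counts were scaled by TMM and tested by edgeR's quasi-likelihood method (edgeR 4.0.16, R 4.3.3) on the 14611 genes that passed filterByExpr, with the label as the only factor. Adjusted p-values (Benjamini-Hochberg) cover all genes tested. A call needs a p under 0.05 with a fold of 1.5 or more. Fold changes are VHL-KO;SETD2-KO over VHL-KO, and unadjusted p-values are edgeR's. The standard error is the size of the log2 fold change divided by the square root of the F statistic. P-values set the difference between labels against the spread between libraries of the same label, and a replicate number was not taken to pair mice. Alternatives were DESeq2 1.42.0, limma 3.58.1 with quality weights, other scaling and filters, and libraries left out.

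Coordinates, exon lengths, base composition and overlaps come from the GENCODE annotation of GRCm38, joined by symbol; levels are compared between genes only per kilobase. Values in every library are given for called and non-overlapping members, the known exporters, most peroxisomal and mitochondrial members, the ribosomal members, and the 5 highest per kilobase. The members and lists were chosen with earlier results of these data known. A few members count in the totals but are not reported here by name.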

Additional observations from a re-analysis of the deposited data

How the results depend on the processing

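Other size factors, other filters on low counts, DESeq2 on all 6 libraries, leaving out mitochondrially encoded genes, and a fold threshold of 2 kept the counts of members called higher, lower and after adjustment within 1.5 times their values. With at least 10 counts required in every library, however, 2 members of subfamily G were left and their median log2 fold change was 0.024, against -0.36. With no filter on low counts the median of subfamily D was -0.35, against -0.74, and over the same 3 members -0.66. The other counts and medians moved most often when VHL-KO replicate 4 was left out or weighted down. The count of lower calls, however, stayed within 1.5 times its value when only VHL-KO replicate 4 was left out (6 against 5 in edgeR). It moved when any other single library was left out, and with the replicate number as a block. The median of subfamily G moved with that block and without VHL-KO replicate 2. The cause of these moves was not tested. DESeq2 without VHL-KO replicate 4 called 2 members higher (9.5% of all genes) and 6 after adjustment. Limma-voom with quality weights called 4 higher and 9 lower, beside 14.5% and 10.5% of all genes, and 12 after adjustment, and leaving out VHL-KO replicate 4 and VHL-KO;SETD2-KO replicate 3 together (chosen after seeing the data) gave 4, 9 and 12 as well, beside 13.4% higher and 10.4% lower. When single libraries were left out in turn, the higher calls ranged from 0 to 2 and the lower ones from 0 to 6, and the members without overlap from 2 to 6 higher and from 6 to 12 lower.

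The median log2 fold change of subfamily D was -0.17 by DESeq2 without VHL-KO replicate 4 and -0.094 without both libraries, and ranged from -0.97 to -0.15 with each library left out. Some of these fits include Abcd2, which was not tested with all 6 libraries; over the same 3 members the medians were -0.27 and -0.30, and ranged from -0.97 to -0.27. That of subfamily F was 0.072 and 0.017 in those settings and 0.049 by limma-voom, ranging from -0.74 to 0.076. That of subfamily G was 0.021 by limma-voom and ranged from -0.82 to 0.95.

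The shared replicate numbers were not taken to pair the samples. The deviations from the label means correlated at 0.16 for replicate number 2 and at -0.32 for replicate number 4, the only numbers that occur under both labels. This check cannot exclude pairing, because VHL-KO replicate 4, which stood apart, enters the VHL-KO mean. With the replicate number as a block, 0 members were called lower, where 0.37% of all genes were (0.637% higher), the median of subfamily G was 0.42, and the log2 fold changes of Abcd3 and Abcg2 became 0.53 and 0.11.

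Of 29 members given by fold change, 11 changed sign in some setting. By DESeq2 without VHL-KO replicate 4 the log2 fold changes that turned were those of Abca1 (-0.055), Abca2 (0.14), Abcb9 (0.33), Abce1 (-0.20), Abcf1 (0.072) and Abcf2 (0.21). Without both libraries they were those of Abca1 (-0.33), Abca2 (0.19), Abcb1a (-0.49), Abcb1b (-0.56), Abcb9 (0.32), Abce1 (-0.10), Abcf1 (0.017) and Abcf2 (0.27). By limma-voom they were those of Abca1 (-0.25), Abca2 (0.18), Abcb1a (-0.35), Abcb1b (-0.32), Abcb9 (0.31), Abce1 (-0.092), Abcf1 (0.049) and Abcf2 (0.24). With each library left out, log2 fold changes ranged from -0.050 to 0.77 for Abca1, -0.66 to 0.15 for Abca2, -0.027 to 0.60 for Abca7, -0.0036 to 1.05 for Abcb1a, -0.17 to 1.85 for Abcb1b, -1.23 to 0.33 for Abcb9, -0.54 to 0.30 for Abcd3, -0.19 to 0.78 for Abce1, -0.22 to 0.076 for Abcf1 and -0.83 to 0.21 for Abcf2. Depth limits what can be said of members near the level of 3 counts, 0.159 to 0.281 CPM.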
